A study of Humulus lupulus with 6 samples.

Results

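Spliced genes whose assembled gene models had nearly the same length in growing stem and in apical meristem of hop (Humulus lupulus, cultivar Cascade) were compared here. The members were chosen by position and structure. A locus was kept where exactly 1 stem model and 1 meristem model overlapped by at least 1 base of exon on 1 strand, where both models had at least 2 exons after overlapping exons were merged, and where the shorter model fell at most 10% short of the longer. This left 11565 loci of the 66254 formed by the stem and meristem tables, and of the 67811 formed when the leaf table is joined as well. Of these, 8401 reached 10 normalised CPM (counts per 1000000 counted fragments, scaled by TMM factors, which allow for a few abundant genes taking a share of the total) in at least 1 of both tissues and were compared. The other 3164 were too weakly expressed in both.

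RNA-seq of leaf, apical meristem and stem was done on Cascade plants kept in a glasshouse. They were given no treatment beyond sprays against insects and fungi, and young leaves, actively growing stems and apical meristems were frozen at harvest, per the labels. The labels list 2 samples per tissue, and the tables hold 1 count column per tissue, so no difference below could be set against the spread between plants. Counted fragments numbered 125454712 in stem and 135877224 in meristem, and the kept loci took 60.9% of the stem fragments and 57.9% of the meristem fragments. The tables give gene numbers without names, so neither tissue could be checked against marker genes, and loci are described by place and structure alone. Contig names are those of the authors' Cascade assembly, and no sequence of it was used here.

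The apical meristem is the dome of dividing cells at the shoot tip from which leaves and stem are formed. The growing stem below it is made of cells that elongate and differentiate into vascular, supporting and surface tissue. Most plant genes are split by introns, and the number of exons follows from the history of each gene family. Where few reads are at hand an assembled model can be cut short and then gathers fewer counts, and loci with models of matched length limit that effect.

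Stem and meristem were alike at most of these loci. Those that differed strongly were more often higher in meristem, though not at 500 normalised CPM or more. Of the 8401 loci compared, 5066 (60.3%) were within 2-fold. A difference of at least 4-fold was seen at 1046 loci (12.5%), of which 451 (5.37%) were higher in stem (stem-high) and 595 (7.08%) higher in meristem (meristem-high). The median log2 difference of stem over meristem was 0.00 and the quartiles were -0.81 and 0.75. The TMM factors were set over the kept loci themselves, which draws this median toward equal levels, so it is no separate sign of likeness. The median was 0.05 without TMM factors. It was 0.07 with factors set over every locus modelled in stem and meristem alike. At the ends of the distribution the 5th percentile was -2.32 and the 95th was 2.05. In whole tissues, fewer cells with a transcript and less of it per cell cannot be told apart.

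The surplus on the meristem side lay among the large differences. Between 4-fold and 8-fold, 317 loci were higher in stem and 345 in meristem. A difference of at least 16-fold was seen at 170 loci (2.02%), 45 of them stem-high (0.536%) and 125 meristem-high (1.49%). At 64-fold and above there were 57 (0.678%), of which 8 were stem-high (0.0952%) and 49 meristem-high (0.583%). Strand-specific counts are less certain at the 686 compared loci that have an overlapping model on the opposite strand. Without such loci, and with TMM factors set anew, 4 stem loci and 45 meristem loci of 7712 compared differed by at least 64-fold. These counts were 5 and 38 of 6117 with lengths within 5% and 4 and 32 of 7149 with at least 3 exons. With no length match they were 20 and 148 of 11774.

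**Figure D1:**
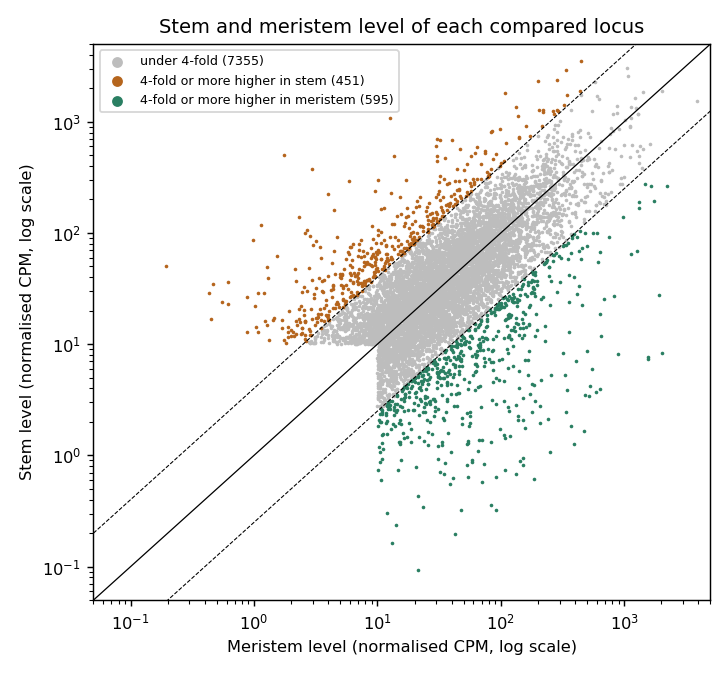
Each point is 1 of the 8401 compared loci, with its level in meristem on the x axis and in stem on the y axis, both in normalised CPM on log scales. The solid line marks equal levels and the dashed lines 4-fold differences; 451 loci lie above the upper dashed line and 595 below the lower one, and the points farthest from the solid line are mostly those higher in meristem.

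The loci at least 4-fold higher in stem took 8.60% of all stem fragments and 1.26% of meristem fragments. For the loci at least 4-fold higher in meristem the shares were 8.15% in that tissue and 0.926% in stem. Stem-high loci had a median of 68.8 normalised CPM in stem and 9.70 in meristem. Meristem-high loci had a median of 59.95 in meristem and 6.04 in stem. Per 1000 bases of model, the medians were 48.7 and 7.72 for the stem-high loci in stem and meristem, and 42.8 and 4.66 for the meristem-high loci in meristem and stem. In the lower tissue, 10 stem-high and 36 meristem-high loci were under 1 normalised CPM.

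Taking each fragment as a separate molecule, counting error was small beside these differences. The exact binomial 95% interval of the log2 difference extended by a median of 0.07 to either side, and 0 compared loci had a count of 0 in either tissue. The interval lay wholly beyond 4-fold at 414 of the 451 stem-high and 540 of the 595 meristem-high loci, and it reached 4-fold at 120 of the loci not called. PCR copies of a molecule cannot be told from separate molecules here, so such intervals may be too narrow even for counting error. They do not cover the spread between plants.

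The largest difference in favour of stem was at a 3-exon locus at 008100F:83416-85561 (minus strand, STRG.55244 in the stem table). It had 63362 fragments in stem and 235 in meristem, 497 and 1.76 normalised CPM, which is 283-fold (counting interval 249 to 323). Ratios and intervals given below are those of the higher over the lower tissue after scaling. Its models covered 1955 and 1882 bases and had the same introns. Leaf was as low as meristem at this locus, with 271 fragments or 2.001 normalised CPM on a scale set over the loci with matched models in all 3 tissues.

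A second 3-exon locus of this kind, at 001993F:149720-150550 (minus strand, STRG.29047 in the stem table), had 6418 fragments in stem and 26 in meristem. The difference was 259-fold (177 to 397), and leaf had 23 fragments. A model on the other strand overlaps this locus.

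The next in size was a 3-exon locus at 003157F:110555-137707 (plus), where a model of 1021 bases was spread over long introns. It had 47455 fragments in stem, 392 in meristem and 709 in leaf, and was 127-fold higher in stem than in meristem (115 to 141). The fourth was a 6-exon locus at 000998F:558229-566426 (plus), with 15165 fragments in stem, 152 in meristem and 144 in leaf (ratio 105, interval 89.2 to 124). This locus, like the second, is overlapped on the other strand. At all of these 4 loci stem alone was high, and leaf stood within a few-fold of meristem.

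The 4 largest differences in favour of meristem lay between 282-fold and 308-fold, all at loci with no overlap on the other strand. A 7-exon locus at 001448F:121377-124064 (plus strand, STRG.25321 in the meristem table) had 52719 fragments in meristem and 163 in stem, 394 and 1.28 normalised CPM (ratio 308, interval 264 to 362). Leaf had 193 fragments. A 3-exon locus at 002603F:53264-54853 (plus strand, STRG.35389 in the meristem table) had 24707 in meristem, 78 in stem and 87 in leaf (ratio 302, interval 242 to 382). At both, meristem alone was high.

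The other two of this group were not low in leaf to the same degree. A 2-exon locus at 000302F:34201-35391 (plus) had 12325 fragments in meristem, 41 in stem and 1556 in leaf (287-fold over stem, 211 to 400). A 3-exon locus at 001331F:477581-479590 (minus) had 62982 in meristem, 213 in stem and 34428 in leaf (282-fold over stem, 246 to 324). Leaf reached 254 normalised CPM there, against 420 in meristem and 1.56 in stem on the scale of 3 tissues. Stem was the tissue that stood apart at this locus.

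The most abundant stem-high loci differed less, between 7.85-fold and 11.7-fold, and were well expressed in every tissue. A 16-exon locus at 005266F:226711-234672 (minus) had 445357 fragments in stem, 0.355% of the total, and 59493 in meristem (ratio 7.85, interval 7.78 to 7.92). A 4-exon locus at 001599F:44372-46997 (minus) had 372805 and 45283 (ratio 8.63, interval 8.55 to 8.72). Leaf was close to meristem at both, with 440 normalised CPM against 397 at the former and 389 against 302 at the latter on the scale of 3 tissues.

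An 8-exon locus at 002041F:402037-404982 (minus) had 301988 fragments in stem and 38152 in meristem, an 8.30-fold difference. A 3-exon locus at 001241F:166583-167564 (plus) had 297637 and 26733, an 11.7-fold difference. The latter held the highest stem level per length of these 4, at 3575 CPM per 1000 bases of its 653-base model, against 1032 for the 16-exon locus.

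Among the most abundant meristem-high loci the differences were of 2 sizes. A 2-exon locus at 000649F:684654-685996 (plus) had 296799 fragments in meristem and 34003 in stem (ratio 8.32, interval 8.23 to 8.42), and a 2-exon locus at 001373F:490158-491545 (minus) had 231348 and 24636 (ratio 8.95, interval 8.84 to 9.07). Both were abundant in stem as well, at 267 and 193 normalised CPM.

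By contrast, a 7-exon locus at 003092F:84744-87149 (plus) had 270418 fragments in meristem and 1061 in stem (ratio 243, interval 229 to 258). An 8-exon locus at 002313F:373966-380976 (minus) had 257807 and 3544 (ratio 69.4, interval 67.1 to 71.7). Leaf lay between the other tissues at both, with 145 normalised CPM at the former and 1009 at the latter. The 8-exon locus is overlapped on the other strand. Its models and those of the 7-exon locus differ in their introns between the tissues.

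At the other end were abundant loci with nearly equal levels. A 3-exon locus at 001418F:257528-260233 (minus) had 1876 normalised CPM in stem and 2021 in meristem, a 1.08-fold difference. A 2-exon locus at 000185F:408117-410578 (minus) had 1324 and 1235. A 5-exon locus at 002718F:151510-176704 (minus) had 1182 and 1295, and another 5-exon locus, at 000729F:80078-85295 (minus), had 1345 and 1132. Leaf held between 1019 and 1910 normalised CPM at these 4 loci, so they were abundant in all tissues.

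Large differences became rarer with exon number. Of 1249 loci with 2 merged exons, taking the model with fewer, 20.3% (interval 18.1 to 22.7) differed by at least 4-fold. The share was 16.4% of 1958 loci with 3 to 4 exons, 10.6% of 3175 with 5 to 9, 7.09% (5.94 to 8.37) of 1792 with 10 to 19 and 3.52% (1.53 to 6.83) of 227 with 20 or more. Both directions took part, since stem-high loci went from 9.13% to 0.881% and meristem-high loci from 11.2% to 2.64% between the first class and the last. The share within 2-fold went from 49.0% to 81.1%. These intervals treat loci as independent draws, which members of a gene family need not be.

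Model length and level moved with exon number. The share of loci differing by at least 4-fold was 21.5% of 177 loci with models under 500 bases, 18.4% of 1396 with 500 to 1000, 13.0% of 4029 with 1000 to 2000, 8.86% of 2507 with 2000 to 4000 and 2.05% of 292 with 4000 or more. By the level in the higher tissue, it was 8.20% at 10 to 20 normalised CPM, 10.3% at 20 to 50, 12.2% at 50 to 100, 18.4% at 100 to 500 and 33.2% of the 196 loci at 500 or more. Loci with many exons were the more abundant ones by fragments, with a median of 108 normalised CPM in the higher tissue for 20 or more exons against 34.3 for 2 exons, so the exon classes and the level classes went in opposite directions. Meristem took 60.9% of the calls at 10 to 20 normalised CPM and 43.1% of the 65 calls at 500 or more. Level here is that of the higher of both tissues and is thus not independent of the fold.

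**Figure D2:**
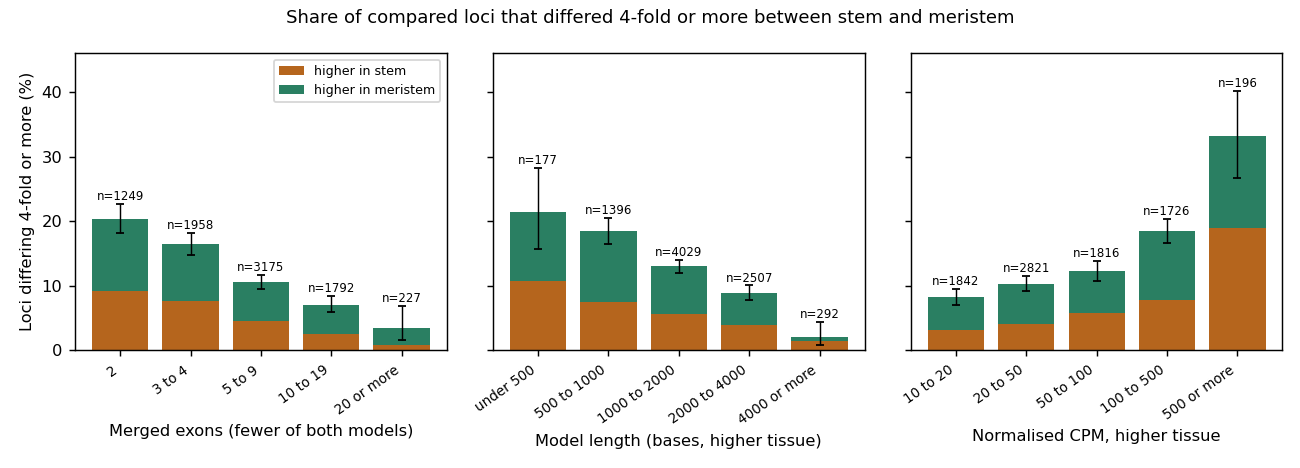
Bars give the percentage of compared loci that differed by at least 4-fold, split into those higher in stem and those higher in meristem, by merged exons, by model length in bases and by normalised CPM in the higher tissue. Whiskers are exact binomial 95% intervals of the whole bar and n is the number of loci; the share goes from 20.3% to 3.52% with exon number, from 21.5% to 2.05% with length and from 8.20% to 33.2% with level.

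Within classes of length, the share went down with exon number for models of 500 to 2000 bases and varied less at 2000 to 4000. At 1000 to 2000 bases the share was 19.5% with 2 exons, 17.8% with 3 to 4, 11.1% with 5 to 9 and 7.34% with 10 to 19. At 500 to 1000 bases it was 28.0%, 18.9% and 10.5% for the first 3 of these classes. At 2000 to 4000 bases it was 10.6%, 8.93%, 10.4% and 7.53%, with intervals that overlap, and 4.55% of 154 loci with 20 or more exons. At 4000 bases or more only 6 of 292 loci were called, too few to compare exon classes.

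Within classes of level the share was higher with 2 exons than with 10 to 19 at every level. It was 12.6% against 2.78% at 10 to 20 normalised CPM, 20.6% against 4.98% at 20 to 50, 19.8% against 5.52% at 50 to 100, 31.8% against 12.2% at 100 to 500 and 57.1% of 21 loci against 26.7% of 30 at 500 or more.

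**Figure D3:**
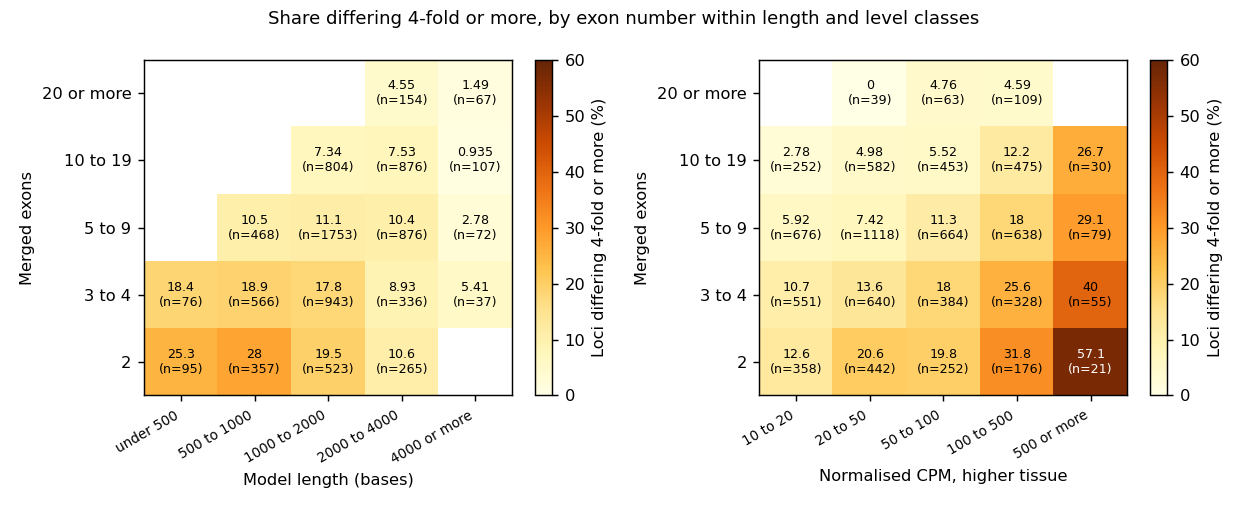
Each cell gives the percentage of loci that differed by at least 4-fold, with the number of loci, by merged exons (y axis) within classes of model length in bases (left) and of normalised CPM in the higher tissue (right); cells with under 20 loci are blank. With models of 1000 to 2000 bases the share is 19.5% at 2 exons and 7.34% at 10 to 19, and at 2000 to 4000 bases it runs 10.6%, 8.93%, 10.4%, 7.53% and 4.55% from the fewest exons to the most.

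Loci with only short introns differed more often than the rest. Of 687 loci whose longest intron in the stem model was under 200 bases, 24.6% differed by at least 4-fold, against 13.9% with 200 to 500, 10.3% with 500 to 1000, 11.98% with 1000 to 5000 and 7.16% of 545 loci with 5000 or more. The first class had a median of 3 exons and the last of 10. Meristem took 52.1% of the 169 calls with longest introns under 200 bases, 63.9% at 200 to 500 and 61.7% at 500 to 1000. It took 50.2% at 1000 to 5000 and 41.0% of the 39 calls with 5000 or more.

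The called loci with most exons differed by little more than 4-fold. In favour of meristem it was a locus at 000182F:268372-299231 (plus) with 36 exons in meristem and 37 in stem, which had 44893 and 9880 fragments (ratio 4.33, interval 4.24 to 4.43). In favour of stem it was a 22-exon locus at 000269F:1143640-1153321 (plus), with 22229 fragments in stem and 5061 in meristem (ratio 4.61, interval 4.47 to 4.75).

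The longest models gave folds of the same kind. A meristem-high locus at 000842F:535060-545465 (minus) had a model of 7247 bases with 8 exons, 23332 fragments in meristem and 4578 in stem (ratio 4.86). A stem-high locus at 001629F:84000-92472 (minus) had a model of 6512 bases with 4 exons, 36035 fragments in stem and 7514 in meristem (ratio 5.03).

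The merged models mostly had the same structure in both tissues, which the rule on model number and length favours. Overlapping exons of a model were merged first, so alternative splice forms were not compared. Of the compared loci, 7070 (84.2%) had the same number of merged exons and 6127 (72.9%) had identical introns. Identical introns were found at 75.2% of the stem-high loci, 79.2% of the meristem-high loci and 72.3% of the others. The called loci had a median of 4 exons in each direction, against 6 at the loci not called. The part of exon number in these shares was not tested.

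A few called loci had clearly different models, named here for the size of that difference. On at 008035F:103240-108796 (plus) the model had 13 exons in meristem and 9 in stem, with 3913 and 829 fragments (ratio 4.50), and it is overlapped on the other strand. On at 001545F:585914-593242 (minus) it had 20 and 17 exons, with 4102 and 721 fragments (ratio 5.42).

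In favour of stem, a locus at 000012F:3311002-3314331 (plus) had 7 exons in stem and 5 in meristem, with 9836 and 399 fragments (ratio 25.9, interval 23.4 to 28.6). Another at 002223F:404231-406356 (plus) had 7 and 4 exons, with 1774 and 464 fragments (ratio 4.01). At these 4 loci the tissue with more fragments had the model with more exons, and whether the fewer reads of the lower tissue left exons unassembled was not tested.

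Even within the limit of 10% on length, the longer model went with the higher level. The stem model was the longer one at 59.0% of the stem-high loci, at 27.2% of the meristem-high loci and at 42.9% of the others. The median difference was 10 bases in favour of the stem model at stem-high loci and -21 bases at meristem-high loci. Divided by model length, 447 loci were stem-high and 574 meristem-high.

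An overlapping model on the other strand was more frequent at stem-high loci. It was found at 72 of the 451 (15.96%), at 55 of the 595 meristem-high loci (9.24%) and at 7.60% of the others. Among the 686 overlapped loci, 10.5% were stem-high and 8.02% meristem-high, and their median log2 difference was 0.26. Whether reads of the opposite partner entered these counts was not tested.

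Leaf, which took no part in choosing the loci, had a length-matched spliced model at 5510 of the 8401. At most meristem-high loci leaf was above stem as well. At 418 such loci with leaf values, the median level was 65.6 normalised CPM in meristem, 49.2 in leaf and 6.14 in stem. Leaf was the highest of the 3 tissues at 151 (36.1%), between the others at 261 (62.4%) and the lowest at 6 (1.44%). Over all 5510 loci these shares were 31.6%, 33.9% and 34.4%, and the share with leaf highest was near that of the meristem-high loci. Leaf was at least 4-fold above stem at 263 of the 418, against 599 of the 5510, and at least 4-fold below meristem at 57, against 116. The low stem and high meristem values that set these calls favour such counts, and favour leaf above stem.

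At stem-high loci leaf was seldom the highest tissue. At 286 of them the median was 80.6 normalised CPM in stem, 22.6 in leaf and 11.3 in meristem. Leaf was the highest at 23 (8.04%), between the others at 192 (67.1%) and the lowest at 71 (24.8%). It was at least 4-fold below stem at 138 of the 286, against 292 of the 5510, and at least 4-fold above meristem at 53, against 333. On the log2 scale leaf was nearer to meristem than to stem at 194 (67.8%) of the stem-high loci, at 341 (81.6%) of the meristem-high loci and at 61.8% of the 4806 others. All these positions and 4-fold counts use the same stem and meristem values that set the calls. The choice thus favours a leaf level between the others, above the lower tissue and below the higher one.

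**Figure D4:**
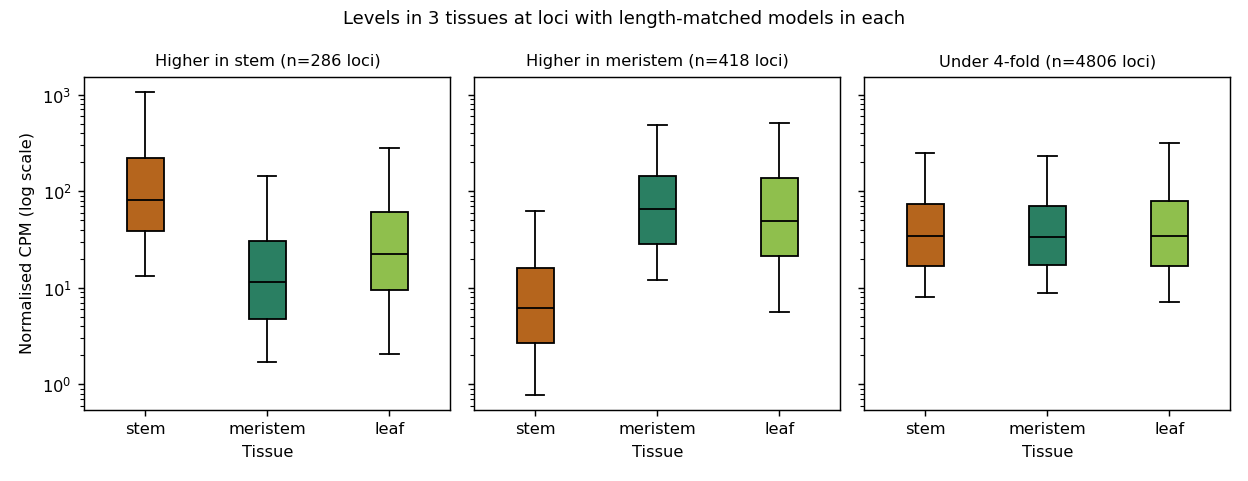
Boxes show the quartiles and whiskers the 5th and 95th percentiles of normalised CPM (log scale) in stem, meristem and leaf, over loci with length-matched models in all 3 tissues: those higher in stem (286), higher in meristem (418) and under 4-fold (4806). At meristem-high loci the median of leaf (49.2) is near that of meristem (65.6), and at stem-high loci it (22.6) lies below that of stem (80.6).

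The side of the calls followed the level in leaf. Of 645 loci at 1 to 10 normalised CPM in leaf, 11.3% were stem-high and 7.91% meristem-high. At 20 to 50 in leaf these were 3.88% and 6.76%, at 100 to 500 4.28% and 11.5%, and at 500 or more 3.03% and 14.5% of 165 loci. Meristem took 41.1% of the calls in the first of these classes and 82.8% in the last.

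The share of called loci varied little with position along the modelled extent of a contig. The share differing by at least 4-fold lay between 11.9% and 13.1% in each of 5 equal segments of a contig, measured from its first base to the last modelled base. The last segment held 2666 loci and each other segment between 1383 and 1489. On this scale the last modelled locus mostly falls in the last segment, wherever the contig itself ends. By modelled contig extent it was 13.3% under 100000 bases and 12.1% at 1000000 or more. The plus and minus strands had 12.8% and 12.1%.

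The calls were scattered over many contigs. Stem-high loci lay on 402 contigs and meristem-high loci on 508 of the 3436 with a compared locus, and 73 contigs had both. Of the 3436, 1719 had only 1 compared locus, and the median was 1. Such scatter and small overlap thus follow in part from how the compared loci lie on contigs. The most on a single contig were 3 stem-high and 4 meristem-high loci. Of 4965 pairs of compared loci that follow each other on a contig, 38 were both meristem-high and 16 both stem-high, while 36 had one of each. A neighbour of a meristem-high locus was itself meristem-high in 11.1% of cases, beside 7.08% of all compared loci, and a neighbour of a stem-high locus was stem-high in 6.35%, beside 5.37%.

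Close neighbours made up part of this. With under 5000 bases between them, 10 pairs were both meristem-high, 9 of them on the same strand, with a median gap of 258 bases. Both loci were stem-high in 4 such pairs, all on the same strand, with a median gap of 250.5 bases. Of all 961 close pairs, 53.6% lay on the same strand, and their median gap was 938 bases. Of these close neighbours, 20.4% of those of meristem-high loci were meristem-high and 10.4% of those of stem-high loci stem-high. At 5000 bases or more the shares were 9.56% and 5.62%. Whether close pairs on the same strand are parts of a single gene was not tested.

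The longest row of neighbours with the same call was on contig 000678F, where 4 compared loci in succession were meristem-high, all on the minus strand. The first, at 770558 to 772008 (4 exons), had 6107 fragments in meristem and 986 in stem (ratio 5.91), and the second, 94 bases further at 772103 to 775760 (8 exons), had 9848 and 952 (ratio 9.86). The third, at 874094 to 876256, had 5 exons in meristem, 3 in stem, and 19126 and 114 fragments (ratio 160, interval 133 to 194). The fourth, at 880954 to 883386 (3 exons), had 8692 and 139 (ratio 59.6, interval 50.4 to 71.0). Leaf had 10430, 14822, 12628 and 42223 fragments at these loci, so that stem was the low tissue at all of them.

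No stem-high row was longer than 2 loci. There were 16 such rows, and the first by contig name was on 000081F, with 2-exon loci at 142577 to 143925 (13123 fragments in stem and 3416 in meristem, 4.03-fold) and at 690580 to 694934 (9470 and 806, 12.3-fold), both on the minus strand and 546654 bases apart.

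Loci left out by the length rule or the exon rule differed more often. Of 3390 spliced loci with 1 model per table whose lengths differed by more than 10%, 22.9% differed by at least 4-fold (8.32% higher in stem and 14.6% in meristem). Of 2079 loci with 1 model per table and no introns in at least 1 of both models, whatever their lengths, it was 38% (17.1% and 20.9%). These values use the TMM factors of the kept loci and counts that are not corrected for model length. Among spliced loci with unequal models of any level, the stem model was the longer one at 37.9% of 7481.

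At the limits of the rule the members were as follows. The called locus closest to 4-fold, at 000079F:670307-672899, was 4.001-fold higher in meristem (20737 fragments against 4942), and the locus closest from below, at 002071F:537532-541910, was 3.9997-fold higher in stem (38594 against 10120). Just inside the CPM limit was a locus at 002151F:362450-365509, with 10.001 normalised CPM in stem, and just outside was a locus at 000978F:679973-681486, with 9.992 in meristem. The length limit fell between a locus at 000014F:3001245-3043504 (1330 and 1197 bases) and a locus at 003679F:141162-146797 (1259 and 1133 bases), which differed by 1.57-fold and 1.34-fold.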

How the data were processed

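Fragments of paired reads were counted by the authors with featureCounts 1.6.3 at strand setting 1, per the file headers, and each tissue had its own gene model file. The deposited values are raw counts, and HISAT2 2.1.0 and StringTie 1.3.3b are named in the submitters' processing notes. Whether the kit marked the strand, and whether a column pools both samples of a tissue, is not stated in the labels or headers. The protocols speak of 1 library per tissue.

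Models were joined in Python 3.11.15 (pandas 2.3.3, numpy 2.4.6, scipy 1.17.1, matplotlib 3.10.9). TMM factors were computed with edgeR 4.0.16 in R 4.3.3 over the 11565 kept loci with the table totals as library sizes (1.02 for stem, 0.984 for meristem), and again for leaf over the 6667 kept loci with a matched leaf model (0.832 for leaf). With 1 column per tissue no test was run. A locus was called by size: at least 10 normalised CPM in the higher tissue and a fold of at least 4. For folds a count of 0 would be raised to 3 counts, which is 0.0235 normalised CPM in stem and 0.0224 in meristem. Intervals are exact binomial (Clopper-Pearson, 95%).

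Loci were named by rule: per direction the 4 largest folds, the 4 highest levels, most exons, the greatest length and the longest row of neighbours. Loci nearest the limits, the 4 most abundant with a log2 difference under 0.32 and the 4 called loci whose exon numbers differed most were added by the same rule. The fourth of these was 1 of 14 called loci tied at a difference of 2 exons and was taken by contig name. The members and rules were chosen with earlier results of these data known.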

Additional observations from a re-analysis of the deposited data

How the results depend on the processing

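Counts of loci are given as stem-high and meristem-high. Under 17 other settings and 1 added after seeing the data (identical introns in both models), the 4-fold counts of 451 and 595 stayed within 1.5 times except under 4 of them. They were 277 and 328 of 3738 compared with a CPM minimum of 50, and 776 and 1032 of 11774 with no length match. Of the same 8401 they were 1563 and 1772 with a fold of 2, and 134 and 250 with a fold of 8. These settings by construction admit fewer or more loci. Meristem held between 52.4% and 65.1% of the calls in each of the 18. The median log2 difference lay between -0.02 and 0.08. At 2 merged exons the called share ranged from 9.05% to 51.0%, and at 10 or more from 1.83% to 27.7%, with the extremes at folds of 8 and 2. The counts beyond 16-fold (45 and 125 of 8401) were 23 and 93 of 6117 with lengths within 5%, and 69 and 177 of 10273 within 20%. They were 26 and 81 of 7149 with at least 3 exons, and 116 and 338 of 11774 with no length match. Named loci keep their counts in every setting, and only the scaling or a division by model length alters a ratio. A change of direction was thus hardly possible for the 31 called ones, whose largest shift was 0.12 on the log2 scale. Settings that dropped a locus gave no value for it. Of the 31, 2 (on 000079F and 002223F) were under 4-fold in some alternatives.

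No paired analysis was possible because each tissue has a single column without a replicate number, so no replicate could be left out and no quasi-likelihood test could be fitted. The lower count of a called locus was at least 26 in meristem and 12 in stem. This follows in part from the rule, since a locus entered only with a spliced model assembled in both tissues. Of the 66254 loci formed, 41014 had a model in both tissues, and loci with too few reads in a tissue for a model were left out. Whether depth limits the comparison was not tested. Error between plants is unknown.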

Other observations

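Below the CPM minimum, large differences were a little less frequent than over all compared loci (12.5%). They were not less frequent than at 10 to 20 normalised CPM (8.20%). Of the 3164 kept loci under 10 normalised CPM in both tissues, 309 (9.77%) differed by at least 4-fold, 148 in favour of stem and 161 in favour of meristem. A count of 0 was found at 4 kept loci in stem and at 6 in meristem, all among these weakly expressed loci.

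At the top of the range, 41 compared loci reached 1000 normalised CPM in stem and 37 in meristem. Of the 41, 18 were stem-high, and of the 37, 12 were meristem-high (4-fold or more). Over all compared loci the shares were 5.37% and 7.08%. The level that sets these classes is that of the tissue in which the call is high, which favours calls among them.

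Models assembled from several overlapping transcripts were less frequent at called loci. Exons listed more than once or overlapping were found in the stem model at 26.8% of the stem-high loci, 17.1% of the meristem-high loci and 33.8% of the others. In the meristem model they were found at 28.4%, 20.8% and 32.4%. The called loci had a median of 4 exons in each direction, against 6 at the others. The part of exon number and model length in these shares was not tested.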
